A study of Mus musculus with 12 samples.

Results

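Hepatocyte plasma protein genes encode the proteins that the liver secretes into blood, and their chromatin was followed here in fibroblasts that were being pushed toward the hepatocyte fate with or without Prox1 overexpression (OE). The 40 listed names covered 39 mouse genes after Tf was read as Trf and C5 as Hc, the symbols of the annotation used. A member region was any ATAC peak that overlapped the GENCODE M21 gene body or the 10 kb on either side (mm10), and this gave 163 of the 176680 peaks in the table. All 39 genes had at least 1 such peak, so none was left without a value, and 13 peaks fell in the windows of more than 1 member.

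Primary mouse embryonic fibroblasts (MEFs) were taken from wild-type C57BL/6N embryos at E13.5. Every culture received lentiviral rtTA (FUW-rtTA), the doxycycline-dependent activator, and 2 ug/ml doxycycline. Of the 12 libraries, 3 were MEF (rtTA alone), 3 were Prox1_OE (with tetO-FLAG-mmProx1), 3 were 4in1_GFP_OE (4in1, LV.4TF, with tetO-GFP) and 3 were 4in1_Prox1_OE (4in1 with tetO-FLAG-mmProx1), all harvested on day 2. The table used here compares the last 2 of these groups, called the GFP arm and the Prox1 arm below, and addresses what Prox1 OE adds to 4in1 reprogramming. The transgenes came on bulk-infected cultures, which can hold cells that lack one of the viruses, so a peak open in fewer cells and a peak less open per cell cannot be told apart.

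Hepatocytes make most circulating plasma proteins, and the genes concerned are among the most strongly transcribed in the adult liver. Their promoters and enhancers are held open there by FOXA, HNF4 and CEBP factors, while fibroblasts keep most of them closed. PROX1 is a homeodomain protein that works with corepressors in hepatocytes and mainly as an activator in lymphatic endothelium. In ATAC-seq the transposase Tn5 cuts accessible DNA, so the reads in a peak measure how open that stretch is, not how much the gene is transcribed.

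Each value is the authors' mean over the 3 libraries of an arm, given as normalised reads per peak, and differences are log2 of the Prox1 arm minus log2 of the GFP arm. No value per library is in the columns used, so no error, interval of a difference or p-value is given, and a peak is described as lower or higher when the 2 means differed by 2-fold or more. The depth of the libraries cannot be read from the table, and the means at member peaks ran from 13.4 reads upward. Over all peaks the Prox1 arm was lower, with a median difference of -0.42 and summed means at 0.751 of the GFP arm, so 0 on the authors' scale is not the middle of the peaks.

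**Figure D1:**
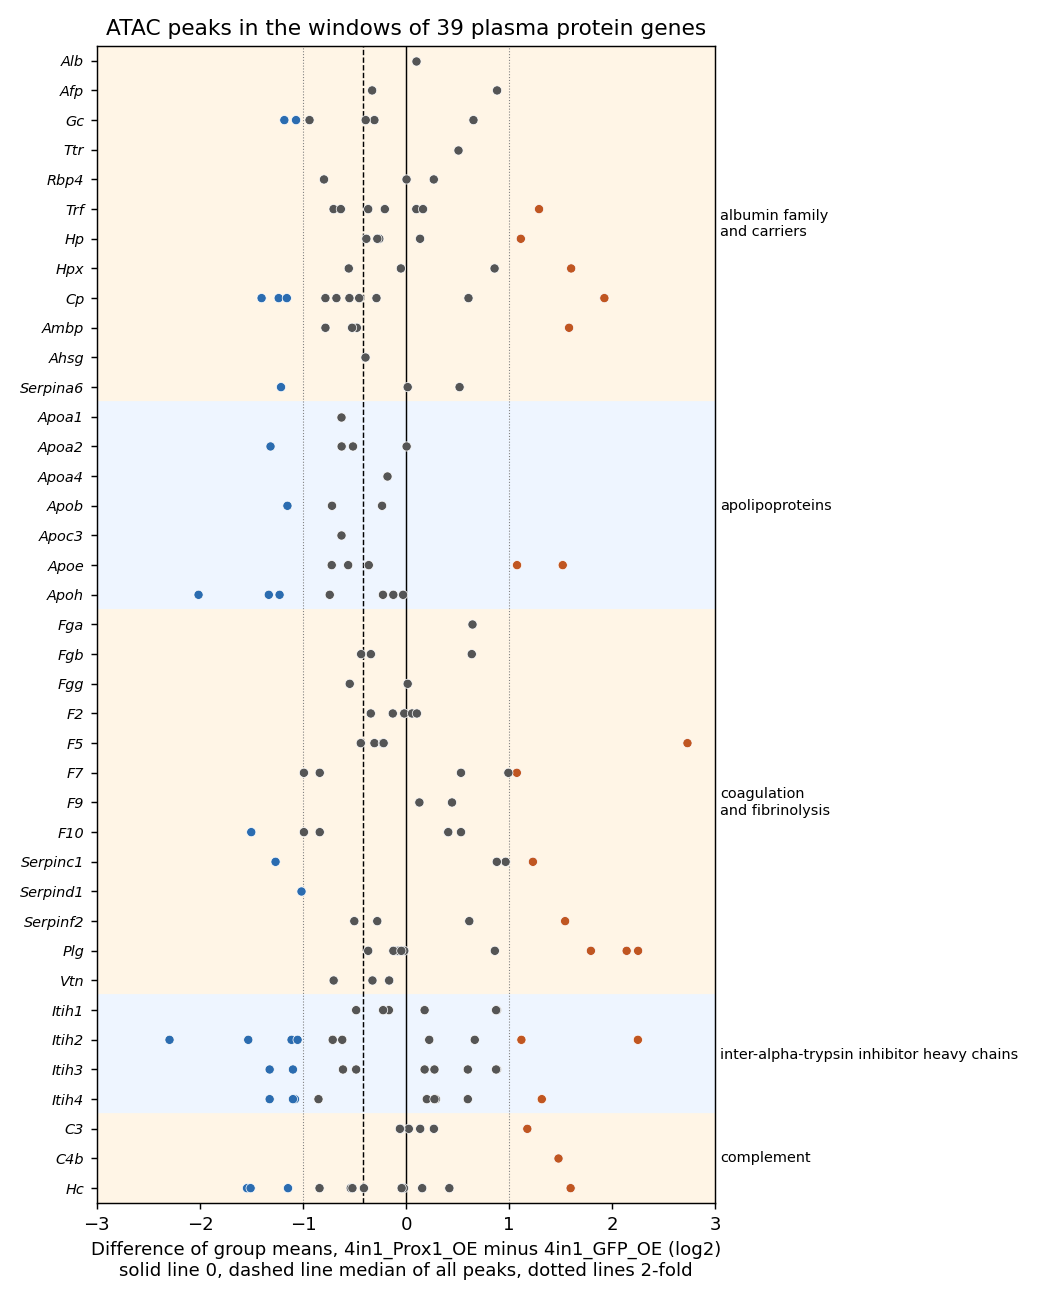
Difference of group means (log2, Prox1 arm minus GFP arm) of every peak in the window of each of the 39 genes, grouped by role; 1 point is 1 peak, drawn again for each member whose window holds it. Blue points are lower and orange points higher by 2-fold or more, the dashed line is the median of all peaks at -0.42, and most genes have points on both sides of it.

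The share of peaks with a lower mean was smaller at the plasma protein genes than over the whole table, and the share with a higher mean was larger. Of the 163 peaks, 24 (14.7%) were lower by 2-fold or more in the Prox1 arm, against 24.4% of all peaks. Another 21 (12.9%) were higher by 2-fold or more, against 8.33% of all peaks, and 118 lay in between. A lower mean of any size was seen at 100 member peaks (61.3%) against 72.3% of all peaks. The median difference was -0.21 on the authors' scale, which is 0.21 above the median of all peaks. Centring on all peaks therefore turns the members' median from below 0 to above 0, with 6 peaks (3.68%) lower and 35 (21.5%) higher by 2-fold or more. Under the same centring 8.64% of all peaks were lower and 13.4% higher. Given the concentration (log2 mean reads over both arms) of the member peaks, all peaks in the same 10 equal bins of concentration, weighted as the members were, would have given 23.7% lower and 10.1% higher. These peaks come from the same 6 libraries and are not independent, and the differences between the shares were not tested. The members just inside the 2-fold line were at -1.02 and 1.07, and those just outside were at -0.99 and 0.99.

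The lower and the higher peaks differed in their GFP-arm means, from which the difference itself is computed. The 24 lower peaks had GFP-arm means of 43.5 to 550.3 reads, and 12 of them lay at or above the median concentration of all peaks. The 21 higher peaks had 13.4 to 49.3 reads in the GFP arm and 40.9 to 133 reads in the Prox1 arm, and all 21 lay below that median. The whole table was much alike, with 89.4% of all higher peaks below that median and 54.3% of all lower peaks at or above it.

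**Figure D2:**
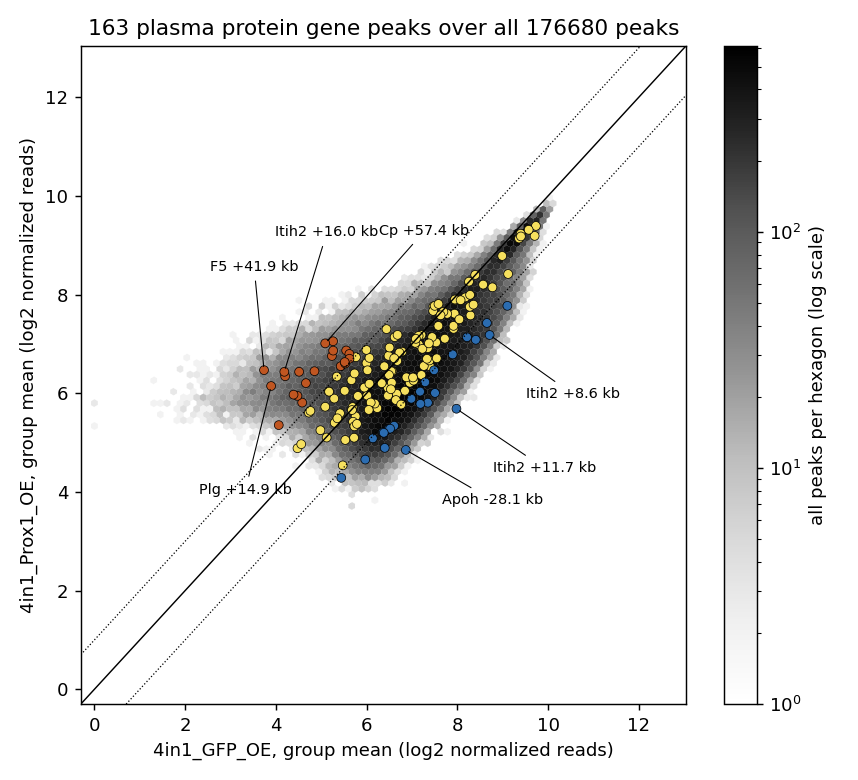
Group means of the 163 member peaks (log2 normalised reads, GFP arm on the x axis, Prox1 arm on the y axis) over the density of all 176680 peaks in grey. Orange points are higher and blue points lower by 2-fold or more, yellow points lie between, the dotted lines mark 2-fold, and the orange points all sit at low GFP-arm means.

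With all peaks split into 4 equal bins by concentration, the gap to the background was widest in bin 2, the one just below the median. There 10 of 41 member peaks (24.4%) were higher against 8.88% of all peaks, and 4 (9.76%) were lower against 27.2%. In bin 1, the lowest, 11 of 52 (21.2%) were higher, close to the 20.9% of all peaks. None of the 70 member peaks in the upper 2 bins was higher by 2-fold or more, where 1.77% of all peaks were.

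**Figure D3:**
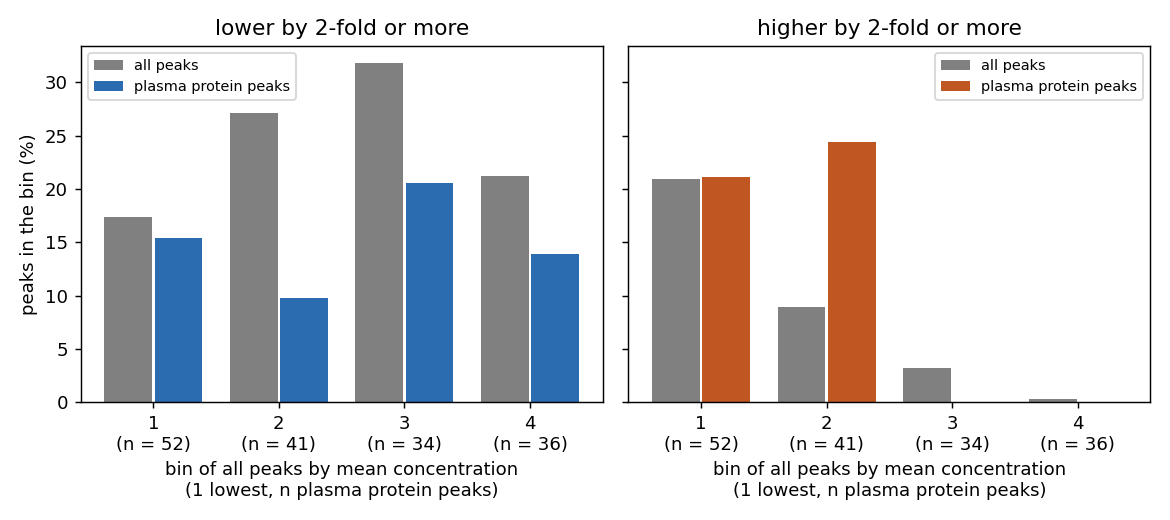
Share of peaks (%) lower or higher by 2-fold or more in the Prox1 arm in each of 4 equal bins of all peaks by mean concentration, for all peaks (grey) and for member peaks (coloured; n below each bin). The coloured bar is above the grey bar for higher peaks in bin 2, at 24.4%, and below it for lower peaks in all 4 bins.

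The sequences of 7 windows that carry the largest differences, or that show the motif counted further on, are printed here in capitals at each match. All are GRCm38 (mm10), plus strand, from the RefSeq assembly. The first 4 windows were lower in the Prox1 arm by 2-fold or more. The last 3 had a higher mean there, although Plg +25.0 kb differed by less than 2-fold (0.86). The 4 lower windows were an Itih2 intron at chr2:10118840-10119040 with no match, another Itih2 intron at chr2:10121929-10122129 with AP-1 and CEBP matches, an F10 intron at chr8:13052536-13052736 with AP-1 and TEAD matches, and an intron of the longest Apoh model at chr11:108365315-108365515 with FOXA and AP-1 matches.
Itih2 +11.7 kb: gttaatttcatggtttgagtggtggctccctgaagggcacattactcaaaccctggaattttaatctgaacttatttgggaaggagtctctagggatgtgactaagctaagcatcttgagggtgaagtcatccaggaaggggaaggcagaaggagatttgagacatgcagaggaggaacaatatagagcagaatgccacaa
Itih2 +8.6 kb: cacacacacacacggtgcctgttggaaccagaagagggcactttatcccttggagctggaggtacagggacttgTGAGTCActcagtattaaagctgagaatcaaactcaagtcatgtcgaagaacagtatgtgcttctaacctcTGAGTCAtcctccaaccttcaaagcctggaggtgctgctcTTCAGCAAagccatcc
F10 +14.8 kb: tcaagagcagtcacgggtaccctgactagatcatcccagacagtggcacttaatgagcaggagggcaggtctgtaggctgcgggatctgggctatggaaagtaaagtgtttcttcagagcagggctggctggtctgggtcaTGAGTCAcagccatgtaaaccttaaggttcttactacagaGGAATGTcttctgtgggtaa
Apoh -29.9 kb: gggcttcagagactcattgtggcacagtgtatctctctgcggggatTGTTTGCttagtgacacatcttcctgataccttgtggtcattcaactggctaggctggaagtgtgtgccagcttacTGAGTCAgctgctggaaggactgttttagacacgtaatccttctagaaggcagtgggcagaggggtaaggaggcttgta

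The 3 windows with a higher mean were an Itih2 intron at chr2:10114556-10114756 with a GATA match, a coding exon of F5 at chr1:164193652-164193852 with no match, and a Plg intron at chr17:12403543-12403743 with a FOXA match.
Itih2 +16.01 kb: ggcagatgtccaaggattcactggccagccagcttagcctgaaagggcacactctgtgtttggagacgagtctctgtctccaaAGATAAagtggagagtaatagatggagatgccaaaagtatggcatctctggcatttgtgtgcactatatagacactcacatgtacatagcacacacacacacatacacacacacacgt
F5 +41.9 kb: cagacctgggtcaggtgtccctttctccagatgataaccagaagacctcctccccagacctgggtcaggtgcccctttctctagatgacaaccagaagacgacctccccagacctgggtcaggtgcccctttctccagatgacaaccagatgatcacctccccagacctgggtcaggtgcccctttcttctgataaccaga
Plg +25.0 kb: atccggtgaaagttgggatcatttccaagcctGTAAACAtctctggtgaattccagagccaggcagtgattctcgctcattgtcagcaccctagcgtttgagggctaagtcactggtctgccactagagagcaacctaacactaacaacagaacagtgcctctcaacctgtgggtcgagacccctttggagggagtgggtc

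Fewer plasma protein genes than protein-coding genes in general had an open promoter in these fibroblasts. A peak within 1 kb of a start site was present at 15 of the 39 genes (38.5%), against 69.1% of 21938 protein-coding genes and 31.7% of 60 other plasma protein genes. A peak anywhere in the window was present at 39 of 39 genes, against 84.2% of protein-coding genes, and the median was 4 peaks per gene in both. Genes without a promoter peak included Alb, which encodes albumin, Ttr, the thyroxine carrier transthyretin, Ahsg, which encodes fetuin-A, the fibrinogen genes Fga, Fgb and Fgg, and C3, the central complement component. The peaks that did lie at member promoters were weak, with a median concentration of 6.04 against 8.95 for the most accessible promoter peak of all genes that had one.

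At the 15 genes with a promoter peak the difference between the arms was mostly small. The most accessible promoter peak was below 0 at 9 of the 15 genes and above 0 at 6. Of all protein-coding genes with a promoter peak, 82.9% were below 0. The median was -0.23 at the 15 genes against -0.19 for all protein-coding genes. Of the 15, 14 differed by less than 2-fold, as did 96.1% of the promoters of all genes that had a promoter peak. The exception was Serpina6, which encodes the glucocorticoid carrier transcortin, where the mean was 89.5 reads in the GFP arm and 38.6 in the Prox1 arm (-1.21). Its first-exon window held an AP-1 match. Upstream of the gene, 8.09 kb from the start site, a peak had 98.3 and 140.9 reads (0.52).

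Taking the most accessible promoter peak of each gene, the highest differences were those of F7, Itih3 and F10. F7, which encodes the clotting protease that starts the tissue factor pathway, had 40.7 reads in the GFP arm and 80.9 in the Prox1 arm (0.99), and a second peak 2.7 kb upstream went from 46.2 to 97.3 reads (1.07). Its neighbour F10, which encodes the protease that activates prothrombin, went from 45.8 to 66.3 reads (0.53). Itih3 went from 35.9 to 65.7 reads (0.87). All 3 were weak promoter peaks in both arms. The remaining promoter values were near 0 at Rbp4, the retinol carrier, with 337 and 338 reads, at F2, which encodes prothrombin, with 39.3 and 42.3 reads, and at the stronger promoter peak of Trf, which encodes transferrin, with 61.8 and 69.3 reads. A weaker Trf peak 1.02 kb from the start site, whose edge falls within the 1 kb, had 16.7 and 40.9 reads (1.29), the highest difference of all 19 member promoter peaks. Lower values were found at Cp, which encodes the copper carrier ceruloplasmin, with 241 and 165 reads (-0.55), and at Itih2 with 313 and 191 reads (-0.71). Apob, Apoe, Hp, F5, Serpinf2 and Itih1 lay between -0.39 and -0.17.

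**Figure D4:**
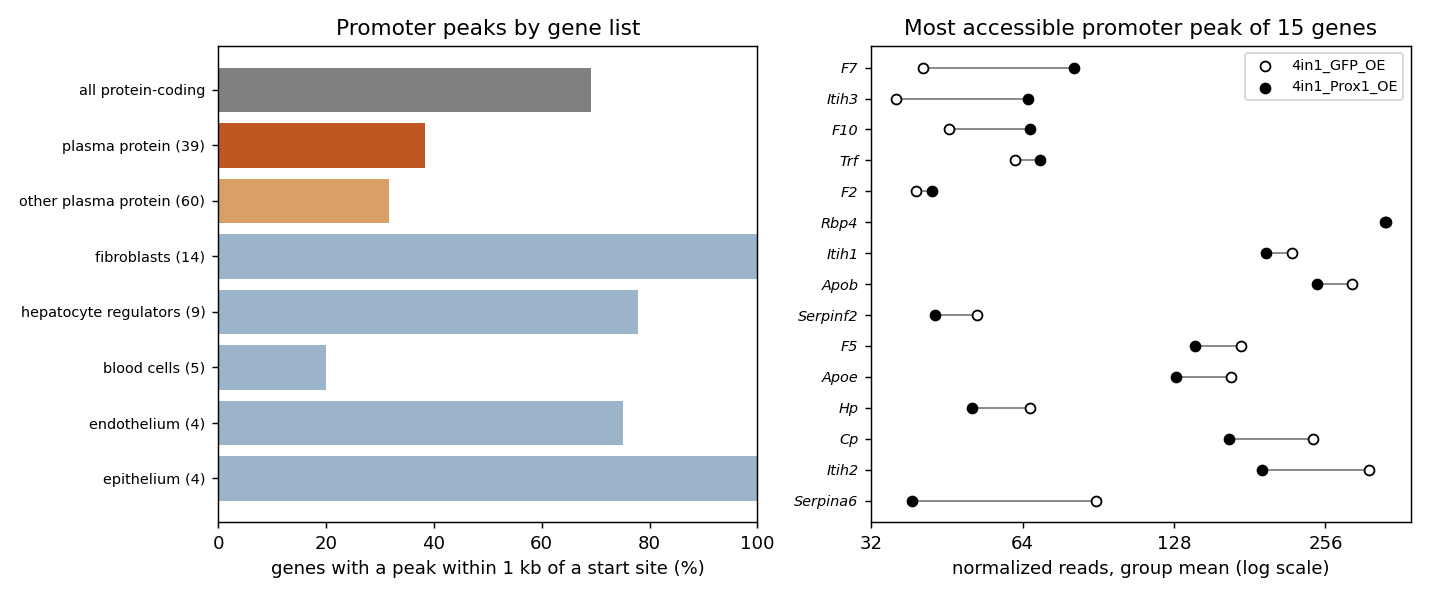
Left, share of genes (%) that had a peak no more than 1 kb from a start site, for all protein-coding genes, the 39 plasma protein genes, 60 other plasma protein genes and marker lists (number of genes in brackets). Right, group means (normalised reads, log scale) of the most accessible promoter peak at the 15 members that had one, open for the GFP arm and filled for the Prox1 arm; F7 has the largest gap to the right and Serpina6 the largest to the left.

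Among the albumin family and the carriers, 6 of 48 peaks (12.5%) were lower and 6 higher by 2-fold or more, against 24.4% and 8.33% of all peaks, with a median difference of -0.30. Alb had a single peak, in a coding exon 6.55 kb from the start site, with 106 reads in the GFP arm and 113 in the Prox1 arm (0.10). Afp, the fetal relative of Alb, had 2 peaks, at 150.1 and 119.5 reads (-0.33) within the gene and at 63.8 and 118 reads (0.88) 3' of it. The single Ttr peak, in an intron, had 103 and 145 reads (0.50), and the single Ahsg peak had 53.1 and 40.2 reads (-0.40). At Alb, Afp, Ttr and Ahsg the arms thus differed by less than 2-fold at every peak.

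Besides those of Cp, each higher carrier peak lay in an intron. Hpx, which encodes the heme scavenger hemopexin, had an intronic peak at 38.4 and 117 reads (1.60). Hp, which encodes the haemoglobin scavenger haptoglobin, had one at 45.8 and 99.2 reads (1.11), and the intronic Trf peak is the weaker promoter peak given above. In Ambp, which encodes the precursor of alpha-1-microglobulin and bikunin, an intronic peak had 20.97 and 62.8 reads (1.58). Gc, which encodes the vitamin D-binding protein, had the opposite balance, with 2 of 6 peaks lower, at 157 and 74.8 reads (-1.07) and at 83.2 and 36.7 reads (-1.18), and none higher.

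Cp showed both directions. A coding-exon peak 8.99 kb from its start site had 22.8 reads in the GFP arm and 86.5 in the Prox1 arm (1.92), while a cluster 53.7 to 54.7 kb from it, within the neighbouring gene Hps3, was lower at all 3 peaks (-1.40, -1.24 and -1.16). Another Hps3 peak 2.75 kb further on had 34.0 and 129 reads (1.92). The Cp window therefore held peaks that lie in another gene, and their link to Cp was not tested.

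The apolipoprotein genes had the lowest median of the 5 role groups. Of 21 peaks, 18 (85.7%) were below 0, against 72.3% of all peaks, and the median difference was -0.56. Their median concentration was 7.20, against 6.71 for all peaks. All peaks in bins 3 and 4 of concentration had medians of -0.61 and -0.38, with 77.9% and 88.2% below 0. The part of concentration in the values of this group was not tested. Of the 21 apolipoprotein peaks, 5 (23.8%) were lower and 2 (9.52%) higher by 2-fold or more, against 24.4% and 8.33% of all peaks. Of the 5, 3 were Apoh peaks that only a long gene model brings in, and around the basic Apoh transcripts 2 of 16 (12.5%) were lower and 2 higher, with a median of -0.54. Relative to the median of all peaks this group stood at -0.14, while the other 4 groups stood between 0.12 and 0.37. Centred on the most accessible 10% of peaks, the apolipoproteins were at -0.30 and the carriers turned to -0.03. The summed means over the window were lower in the Prox1 arm at all 7 genes, as at 87.9% of all protein-coding genes with a peak, and the median log2 ratio was -0.48 against -0.29. The 7 genes are not separate counts, since a pair of them rests on the same peak. Apoa1, which encodes the main protein of high-density lipoprotein, and Apoc3, an inhibitor of lipoprotein lipase, shared their only peak, in a coding exon of Apoa1, with 438 and 284 reads (-0.63). At Apob, the structural protein of very low-density lipoprotein, the intronic peak 18.2 kb into the gene had 82.0 and 36.9 reads (-1.15). Apoa4 had 269 and 237 reads (-0.19) at its only peak. Apoa2, which encodes another protein of high-density lipoprotein, had no peak in its body. Of its 4 peaks, the one 8.1 kb from the start site, in an intron of Fcer1g, had 62.7 and 25.2 reads (-1.31), and the other 3 lay between -0.62 and 0.01.

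Apoe, the ligand that clears lipoprotein remnants, was the one apolipoprotein gene with higher peaks. These were at 37.7 and 108 reads (1.52), near the start site of Apoc1, and at 49.3 and 104 reads (1.08), in a coding exon of Tomm40. Its 3 other peaks lay between -0.72 and -0.36. Apoh, which encodes beta-2-glycoprotein I, had 3 of 7 peaks lower and the others between -0.74 and -0.03. Its lower peaks, at 117 and 28.9 reads (-2.01), 550.3 and 219 reads (-1.33) and 402 and 172 reads (-1.23), lay 28.1, 29.9 and 58.7 kb upstream of the start site of the basic transcript set. They entered through a longer Apoh gene model of 71.0 kb that begins beside the start site of Prkca. With the window drawn around the basic transcripts, 158 member peaks remained, of which 21 were lower and 21 higher (13.3% each). The shares of all peaks were 24.4% and 8.33%.

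Genes of coagulation and fibrinolysis had the larger share of higher peaks of the 2 groups with 48 peaks. Of 48 peaks, 3 (6.25%) were lower and 7 (14.6%) higher by 2-fold or more, against 24.4% and 8.33% of all peaks, and the median difference was -0.06 against -0.42. Plg, which encodes plasminogen, the precursor of the clot-dissolving protease plasmin, held 3 of the 7. Introns 14.9 and 15.8 kb from its start site had 14.9 and 70.8 reads (2.25) and 18.4 and 81.3 reads (2.14), and a peak beyond its end, in an intron of Slc22a3, had 38.3 and 133 reads (1.79). The Plg peak printed above at +25.0 kb, had 86.8 and 158 reads (0.86), the highest difference among the 70 member peaks at or above the median concentration. The other 6 Plg peaks lay between -0.37 and -0.02, so the gene had no peak lower by 2-fold.

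F5 held the largest difference of all member peaks. This cofactor of the prothrombin-activating complex had 13.4 reads in the GFP arm and 88.6 in the Prox1 arm (2.73) at the coding-exon window printed above, a size reached by 0.637% of all peaks. The window is an internal repeat, since 89.8% of its bases equalled the base 54 positions further on. Of all peaks, 125 (0.0707%) reached 80% at any step from 10 to 100 bases, and 61 of these were among the 14723 higher peaks (0.414%). No other member peak exceeded 52.5%. How reads from such a repeat were placed is not given in the sources used here, and its part in the F5 value was not tested. The other 4 F5 peaks, promoter included, lay between -0.44 and -0.22.

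The remaining genes of this group showed smaller or mixed differences. Serpinc1, which encodes antithrombin, had peaks at 23.9 and 56.1 reads (1.23) in an intron and at 97.5 and 40.5 reads (-1.27) near its end. Serpinf2, the plasmin inhibitor alpha-2-antiplasmin, had one at 25.3 and 73.8 reads (1.54) in its 3' flank. F10 had the lowest value, at 182 and 64.3 reads (-1.50), in the intron printed above. Serpind1, which encodes heparin cofactor II, had a single peak, in the neighbouring Pi4ka, with 179.6 and 88.4 reads (-1.02).

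Fibrinogen genes had no peak that differed by 2-fold. Fga and Fgb shared a peak in a coding exon of Fga at 34.0 and 52.9 reads (0.64), and the strongest peak of the locus, at the start site of Plrg1, had 851 and 672 reads (-0.34). The 2 Fgg peaks were at -0.55 and 0.02. All 5 F2 peaks lay between -0.34 and 0.10, both F9 peaks (the clotting factor lacking in haemophilia B) were above 0 at 0.45 and 0.13, and the 4 Vtn peaks (vitronectin, an adhesion and complement-regulating protein) were between -0.70 and -0.16, none of them in the gene body.

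The inter-alpha-trypsin inhibitor heavy chains held the lowest difference of all member peaks. Of 27 peaks, 7 (25.9%) were lower and 3 (11.1%) higher by 2-fold or more, near the 24.4% and 8.33% of all peaks. The quartiles of the difference were -0.95 and 0.44, against -0.99 and 0.074 for all peaks. Itih2 had 11 peaks, of which 4 were lower and 2 higher. The intron 11.7 kb from its start site had 253 reads in the GFP arm and 51.5 in the Prox1 arm (-2.29), and 68 of all 176680 peaks (0.0385%) had a difference as low. The intron 8.6 kb from the start site had 419.5 and 145 reads (-1.53). A peak in an intron of the neighbouring Kin had 239 and 110 reads (-1.11).

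In the same gene, 4.28 kb beyond the lowest peak, the intron at +16.01 kb had 18.2 and 86.5 reads (2.25). Upstream of the gene, peaks 0.95 kb apart had 43.1 and 93.6 reads (1.12) and 70.4 and 34.0 reads (-1.05). Such neighbours with opposite 2-fold differences were 5 of 129 neighbouring pairs (3.88%), against 2.79% of the pairs of all protein-coding genes, and lay in 4 of the 39 genes (10.3% against 11.2%). Hc had a pair 1.49 kb apart in its upstream flank, at 28.9 and 87.3 reads (1.60) and at 84.5 and 29.7 reads (-1.51), and the others were in Serpinc1 and Cp. A sum over the window hides these pairs, and Itih2 as a whole stood at -0.65.

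**Figure D5:**
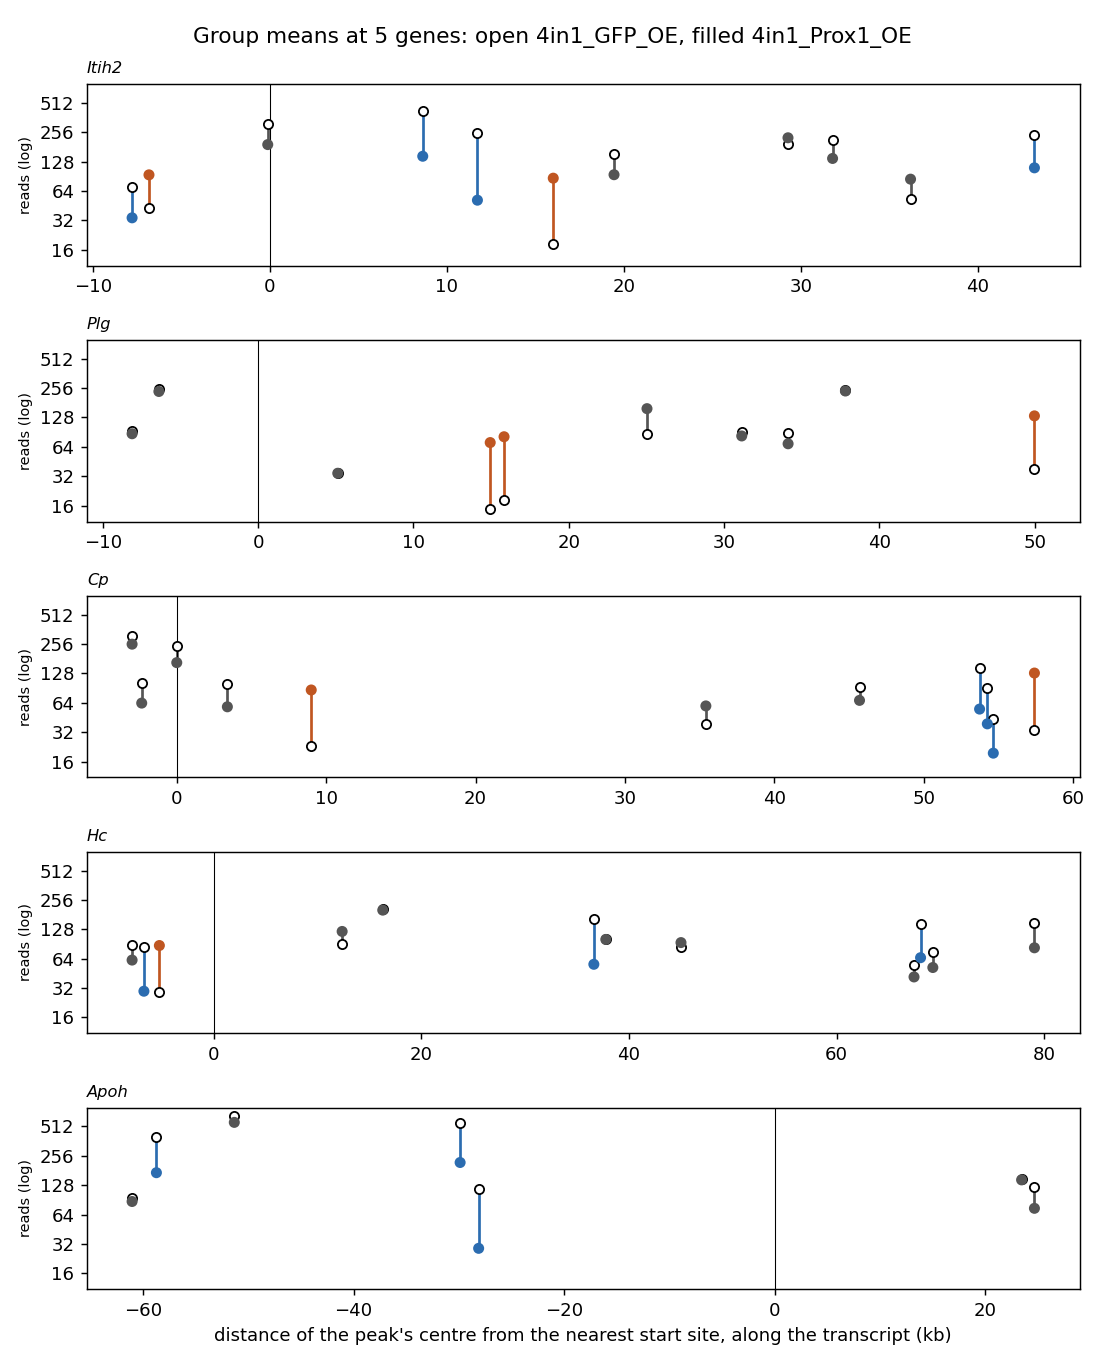
Group means of every peak (normalised reads, log scale) at 5 genes against distance from the nearest start site along the transcript (kb), open for the GFP arm and filled for the Prox1 arm. Blue lines are lower and orange lines higher by 2-fold or more; Itih2, Cp and Hc hold both colours, Plg orange alone and Apoh blue alone, upstream of its start site at 0.

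Itih1, Itih3 and Itih4 lie side by side, and their windows shared peaks. Of the 9 Itih4 peaks, 3 were lower, at 339.5 and 136 reads (-1.32), 127 and 59.3 reads (-1.10) and 297 and 141 reads (-1.08), the last at the start site of the muscle gene Mustn1. An Itih4 intron had 46.9 and 117 reads (1.32), and a peak in an exon of Mustn1 had 178 and 217 reads (0.29). The first 2 of the lower peaks were also in the Itih3 window, and no Itih1 peak differed by 2-fold.

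Complement genes were split, with 3 of 19 peaks (15.8%) lower and 3 higher by 2-fold or more, against 24.4% and 8.33% of all peaks, and a median difference of -0.04. C3 had 6 peaks, 5 of them between -0.06 and 0.27, and 1 higher at 49.2 and 111 reads (1.18), in a coding exon of Gpr108. C4b, which encodes a component of the classical pathway, had a single intronic peak at 22.2 and 61.7 reads (1.47). Mouse C4b has a close copy in the genome, so its value is uncertain. Hc, which encodes complement C5, had 12 peaks, 3 of them lower and 1 higher, with the lowest in a coding exon at 163 and 56.1 reads (-1.54). An Hc intron had 90.9 and 122 reads (0.42).

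Summed over each window, 28 genes were lower and 11 higher in the Prox1 arm, so 71.8% were lower against 87.9% of protein-coding genes with a peak. The median log2 ratio of the sums was -0.19 against -0.29. Set against that median, 18 members were below and 21 above it. By single peaks, 8 genes had only lower 2-fold peaks, 11 only higher ones, 5 had both and 15 had neither. These were 20.5%, 28.2%, 12.8% and 38.5% of the 39 genes, against 33.1%, 11.2%, 21.0% and 34.7% of protein-coding genes with a peak.

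By position in the locus, the body peaks stood farther from all peaks of their class than the flanking peaks did. The 70 peaks in a member's body away from start sites had a median of -0.03, against -0.48 for such peaks of all protein-coding genes. Of these, 9 (12.9%) were lower and 11 (15.7%) higher by 2-fold or more, against 25.9% and 8.69%. The 60 flanking peaks had a median of -0.28 against -0.35, with 12 of the 60 lower and 8 (13.3%) higher, against 20.4% and 7.70%. At the 14 peaks at start sites of other genes, 13 were below 0 (92.9%, against 77.9% of all peaks at start sites), 2 were lower (14.3% against 8.26%) and 1 higher (7.14% against 3.16%) by 2-fold or more, and the median concentration was 8.85. The 130 member peaks away from any start site had a median of -0.12 against -0.49 for all such peaks.

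Motif letters were searched on both strands of every window. AP-1 (TGACTCA or TGAGTCA), the site of FOS and JUN dimers that is common in fibroblast enhancers, was in 28 member windows (17.2%) against 23.0% of all windows of this table. It was in 9 of the 24 lower member peaks (37.5%), close to the 38.5% of all lower peaks, and in 2 of the 21 higher ones (9.52%) against 14.6%. Of the 28 member peaks with AP-1, 9 (32.1%) were lower, against 15 of 135 (11.1%) without it. In all peaks the same shares were 40.8% and 19.5%, so the members' shares were below those of all peaks in both classes. Besides the windows printed above, the lower peaks with AP-1 included those of Serpina6, Apob, Gc, Serpind1 and Hc.

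Motifs of hepatocyte factors were about as common in member windows as elsewhere. FOXA (TGTTTAC or TGTTTGC) was in 10 member windows (6.13% against 6.71%) and CEBP (TTGCNNAA) in 14 (8.59% against 8.90%). HNF4 (CAAAGTNCA) was in 2 (1.23% against 0.985%) and HNF1 (TTAATNATT) in 1 (0.613% against 0.587%). The TEAD letters ACATTCC were in 10 windows (6.13% against 7.69%). CTCF, searched by its longer consensus, was in 5 (3.07% against 2.87%). GATA letters, AGATAA, were in 9 windows (5.52% against 6.72%).

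The PROX1 consensus, with 1 mismatch allowed, was in none of the 163 windows and in 0.305% of all windows. The study instead mapped a PROX1 motif from a database onto the genome, so these shares cannot be set against its motif-bearing peaks. No match says only that the consensus letters are not in the windows, and it does not show that PROX1 sites are absent. Matches of different motifs did not overlap in the 7 printed windows.

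Marker genes of several cell types were read in the same way. All 14 fibroblast markers had a promoter peak, against 69.1% of protein-coding genes. All 14 also had lower summed means in the Prox1 arm, as did 87.9% of protein-coding genes with a peak, with a median log2 ratio of -0.73 against -0.29. Of 9 hepatocyte regulators, 7 had a promoter peak, and the median log2 ratio of the summed means was 0.09. Reads from the transgenes cannot be told from chromosomal reads over exons of the introduced factors. A promoter peak was present at 1 of 5 blood cell markers, 3 of 4 endothelial markers and 4 of 4 epithelial markers. The presence of a promoter peak therefore does not tell fibroblasts from epithelial cells here. The part of the fibroblast markers' difference in the values of the plasma protein genes was not tested.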

How the data were processed

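ATAC-seq was done on 12 libraries of mouse embryonic fibroblasts. The submitters' processing notes name FastQC 0.11.8, Trimmomatic 0.38, Bowtie2 2.3.4.3, SAMtools 1.10, Picard 2.18.16, bedtools 2.27.1, MACS2 2.1.2, deepTools 3.1.3, MultiQC 1.6 and DiffBind 3.4.11, with build mm10. The study's methods name MACS2 as peak caller and its reporting form names Genrich, and whether peaks were called per library or on pooled reads is not given in the sources used here. DiffBind counted and normalised reads in windows of 201 bases, apart from 8 wider windows, none of them a member peak. The deposited table holds the authors' log2 mean concentration per arm. The study's methods refer to the DiffBind vignette of the same version, and the scaling and background settings themselves are not spelled out in the sources used here. The table's fold, p-value and FDR columns and the 2 region lists hold the authors' own comparison and were not used. Tables of the MEF and Prox1_OE groups were not analysed here.

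Differences of the deposited log2 means were taken per peak with Python 3.11.15, pandas 2.3.3 and numpy 2.4.6, and sequences were read with pysam 0.24.0. Gene bodies came from GENCODE M21 and start sites from its basic set. No statistical test was run, since the columns used hold no value per library. Counting steps were tested on simulated data. The members and lists were chosen with earlier results of these data known. Named were all members by role, the most accessible promoter peak of each, and the 5 lowest and 5 highest differences over all member peaks and over those at or above the median concentration. Other peaks lower or higher by 2-fold were named after their values were seen, and so were the 7 printed sequences, from which windows over first exons were left out. CTCF and PROX1 were searched with degenerate letters. The alternatives were other fold sizes, zero points, filters, offsets, windows and start sites.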

Additional observations from a re-analysis of the deposited data

How the results depend on the processing

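No paired analysis was possible because only the means of each arm were used, and for the same reason no library could be left out. At 1.5-fold, 45 member peaks (27.6%) were lower and 35 (21.5%) higher, against 42.4% and 13.4% of all peaks. At 3-fold, 2 (1.23%) were lower and 9 (5.52%) higher, against 4.42% and 4.01%. The zero point turned the sign of the median. Centred on the median of all peaks, 6 were lower and 35 higher, against 8.64% and 13.4% of all peaks. There 36.2% were below 0 and the median was 0.21. With equal totals the values were 6, 35, 36.2% and 0.21. Centred on the most accessible 10% of peaks, 11 (6.75%) were lower, 46.0% were below 0 and the median was 0.057. Under that centring 13.9% of all peaks were lower and 58.0% below 0, with a median of -0.15. Without the least accessible 25% of peaks, 10 of the remaining 111 (9.01%) were higher, against 4.14% of all remaining peaks. Of those 111, 69.4% were below 0, against 78.6%. With 32 reads added to each mean 9 were lower and 9 higher (5.52% each), against 11.5% and 3.61% of all peaks. In the gene body alone 11 of 87 peaks (12.6%) were lower and 12 (13.8%) higher, with a median of -0.054. Within 50 kb 71 of 416 (17.1%) were lower, 40 (9.62%) higher and 68.8% below 0. For both windows the shares of all peaks were 24.4% lower, 8.33% higher and 72.3% below 0, and the number of member peaks itself changed. The cause of the other shifts was not tested. Under all 11 alternatives the share lower was smaller, and the share higher larger, among member peaks than among all peaks. The window around the basic Apoh transcripts was added after seeing the data. The number of genes with a peak (32 to 39) or with a promoter peak (12 to 19) stayed within 1.5 times the reported count. Weak peaks limit the higher calls, which rest on 13.4 to 49.3 reads in the GFP arm.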

Other observations

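A second list of 60 plasma protein genes, among them complement, coagulation and acute-phase genes, was counted in the same way. Of these, 50 had a peak in the window and 19 (31.7%) a promoter peak, against 69.1% of protein-coding genes. Their 210 peaks included 36 (17.1%) lower and 15 (7.14%) higher by 2-fold or more, with a median difference of -0.26, and 206 of them lay in no window of the 39 genes. The share of lower peaks was below the 24.4% of all peaks, as it was among the 39 genes (14.7%). The share of higher peaks was below the 8.33% of all peaks, whereas among the 39 genes it was 12.9%, and the difference between the lists was not tested.

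Outside the liver list, the epithelial markers Epcam, Krt18, Cdh1 and Krt8 had promoter differences of 1.00, 0.74, 0.13 and -0.76. The endothelial markers Kdr, Tek and Pecam1 had -0.03, -0.68 and -1.59. The 14 fibroblast markers had a median promoter difference of -0.36, from -1.27 at Prrx1 to 0.20 at Thy1.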
